A study of Rattus norvegicus with 30 samples.

Results

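H3K27me3, a mark of Polycomb-repressed chromatin, was set against H3K4me3, a mark of promoters, in the cortex of E14.5 embryos from control-fed dams. The regions were all intervals of the 2 control peak lists, 57604 for H3K27me3 and 113056 for H3K4me3, which makes 170660 of the 1417597 intervals in the 10 lists of the series. They rest on 6 of its 30 ChIP-seq libraries, 3 for each antibody. The dams were female Wistar rats fed normal chow and water, and the frontal lobe cortices of a whole litter were pooled for each biological replicate. The dams of the other group, on a high-fat diet (HFD), were not used here. No allele or drug was applied to the control animals.

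H3K27me3 is written by EZH2, the catalytic subunit of Polycomb repressive complex 2, and is bound by other Polycomb proteins that keep genes silent. H3K4me3 is written by COMPASS-type methyltransferases at the start sites of active or poised genes. The marks are known as opposing, and regions that carry both in the same cells are called bivalent and are best known at developmental genes of stem and progenitor cells. In a tissue of several cell types, peaks of both marks at the same position can come from the same or from different cells, and ChIP-seq of bulk tissue cannot tell these apart.

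The authors called peaks with MACS2 on the 3 libraries of an antibody together, against the rat genome build rn6. Every interval has a fold enrichment over the local background and a −log10 q, which are the authors' values and are averages over the region in the broad H3K27me3 list. In the narrow H3K4me3 list they belong to a summit, and the strongest summit of an interval was taken here. As each antibody has 1 list, the spread between replicates is unknown for all values below, and no test was run. Shares carry 95% Wilson intervals for counting error alone, and neighbouring regions of a genome are not independent. The background pileup, solved from the commonest fold enrichment in each list and its p, was 0.880 fragments per base for H3K27me3 and 1.23 for H3K4me3. It belongs to the peak call, and the depth of the libraries was not measured here. The lists are lenient, with 60.8% of the H3K27me3 and 73.6% of the H3K4me3 intervals at a q of at most 0.05. Regions are given by their rn6 position and not by gene, as an annotation of that build was not used here.

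The H3K27me3 list held short regions. Their median width was 714 bp (middle 50% of intervals 408 to 1115 bp), against 469 bp (358 to 723 bp) for H3K4me3. Only 51 H3K27me3 intervals reached 4000 bp, and the widest was 8332 bp long. In all, H3K27me3 covered 48.9 Mb and H3K4me3 67.1 Mb. The broad domains for which H3K27me3 is known elsewhere were thus not present in this list as single intervals.

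With an overlap of at least 1 bp, 43310 H3K27me3 intervals (75.2%, Wilson interval 74.8% to 75.5%) met H3K4me3, and 14294 did not. Of the H3K4me3 intervals, 45719 (40.4%, 40.2% to 40.7%) met H3K27me3, and 67337 did not. The bases in both marks came to 30.0 Mb, which is 61.3% of the H3K27me3 bases and 44.7% of the H3K4me3 bases. Which mark had the larger overlapped share changed when H3K4me3 alone was cut. With H3K4me3 cut to its 57604 strongest intervals the shares were 61.3% of H3K27me3 and 63.5% of H3K4me3, and with H3K4me3 of −log10 q of at least 5 they were 45.8% and 87.0%. With that limit in both lists the order was that of the full lists, at 98.3% and 54.1%. H3K27me3 outside H3K4me3 lay in about equal parts in intervals without any H3K4me3 (8.84 Mb) and in the overhangs of overlapped intervals (10.1 Mb).

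These shares have to be read beside those of the other 3 antibodies, which also found most of these regions. H3K27me3 intervals met control H4K16Ac, an acetylation of active chromatin, in 90.6%, total H3 in 84.0% and pan H4 in 87.0%. H3K4me3 intervals met them in 82.8%, 72.6% and 76.8%. The 3 lists are longer than that of H3K4me3, with 173786, 169297 and 196878 intervals. The total H3 list includes a library, replicate 3, whose title names the control diet while its other labels name HFD. The part that the core histone signal of these regions has in the overlap of the 2 marks was not tested.

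At an overlap of at least 1 bp, wider intervals of either mark were overlapped more often. Among H3K27me3 intervals the share with H3K4me3 was 57.3% under 500 bp, 83.8% at 500 to under 1000 bp and 84.4% at 1000 to under 2000 bp, and the Wilson intervals of the last 2 overlap. It was 93.1% at 2000 to under 4000 bp and 98.0% (89.7% to 99.7%, 50 of 51) at 4000 bp or more. For H3K4me3 the gradient was steeper, from 13.0% under 300 bp and 20.0% at 300 to under 500 bp to 57.1%, 91.3% and 99.5% in the 3 wider classes. Of the 636 H3K4me3 intervals of 2000 bp or more, 633 met H3K27me3. Width went with strength in H3K4me3, with a median −log10 q of 1.18 under 300 bp and 43.6 at 2000 bp or more. Among H3K4me3 intervals with −log10 q of at least 5 the share was 45.1% under 300 bp and 54.4% at 300 to under 500 bp. It was 98.5% at 1000 to under 2000 bp. A wide interval has more bases at which to meet another. With at least 50% of the interval required in the other mark, the share was 60.8% (31 of 51) for H3K27me3 of 4000 bp or more. It was 53.6% under 500 bp, so that most of the difference between these end classes was gone. At this limit the share did not rise steadily with width, as it was highest at 500 to under 1000 bp and lowest at 2000 to under 4000 bp. Of the overlapped intervals in these classes, 9.58% and 44.3% were covered to less than 50%. The H3K4me3 classes were not compared at this limit.

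**Figure D1:**
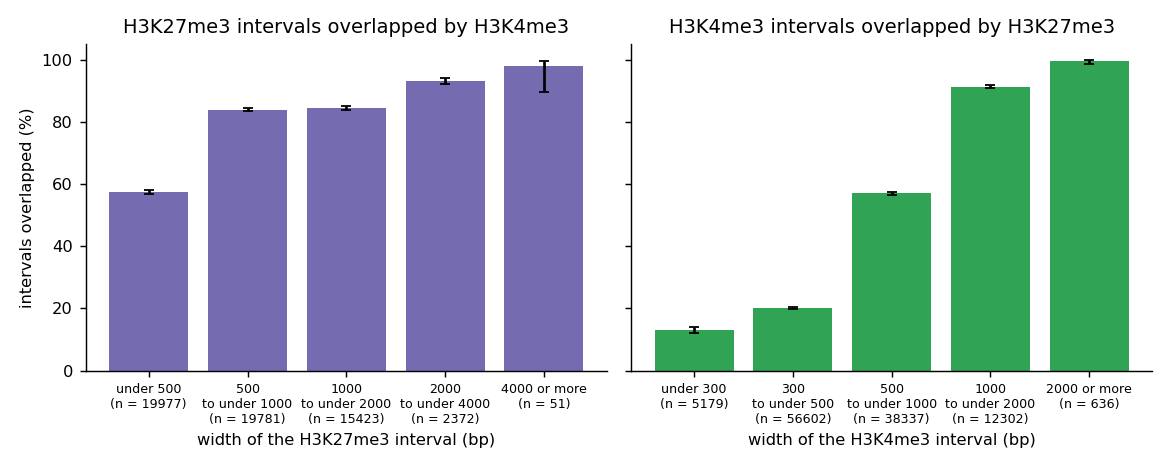
Share of intervals (%, y axis) overlapped by the other mark in each width class (x axis, bp), for H3K27me3 (left) and H3K4me3 (right) in control cortex. Bars are the share in 1 list and error bars are 95% Wilson intervals. The share rises from 57.3% to 98.0% for H3K27me3 and from 13.0% to 99.5% for H3K4me3.

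The share of an H3K27me3 interval that H3K4me3 covered ran the other way. Overlapped intervals under 500 bp were covered to a median of 96.1% and those of 500 to under 1000 bp to 96.9%, while the median was 90.1% at 1000 to under 2000 bp, 55.7% at 2000 to under 4000 bp and 58.7% at 4000 bp or more. Wholly covered were 43.0%, 37.1%, 20.7% and 5.39% of the overlapped intervals in the first 4 classes and 1 of 50 in the widest. The class of 1000 to under 2000 bp was spread widely, since 35.3% of its overlapped intervals were covered to between 75% and 100% and 30.7% to less than 50%. Seen from H3K4me3, the median share covered by H3K27me3 was 90.0% under 300 bp, 83.0%, 84.3% and 92.3% in the next 3 classes and 96.7% at 2000 bp or more. The wholly covered share of these classes was 33.8%, 24.6%, 13.4%, 10.7% and 15.6%.

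Wide H3K27me3 intervals differed by their strength. At 1000 to under 2000 bp, the 6612 intervals with −log10 q of at least 5 were overlapped in 99.7%, and 93.0% of their bases lay in H3K4me3. The 5221 intervals of that width with a q over 0.05 were overlapped in 60.9%, and 24.0% of their bases lay in H3K4me3. Between them stood 3590 intervals with 90.1% overlapped and 51.3% of bases shared. The centres of overlapping marks lay a median of 35.5 bp apart in the strong and 453.5 bp apart in the weak intervals of this width. A strong interval of that width thus shared nearly all of its bases and its centre with H3K4me3, whereas a weak overlapped interval was covered to a median of 33.8%, away from its centre. The same order held at 2000 to under 4000 bp, with 78.6% of bases shared in strong and 22.5% in weak intervals.

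**Figure D2:**
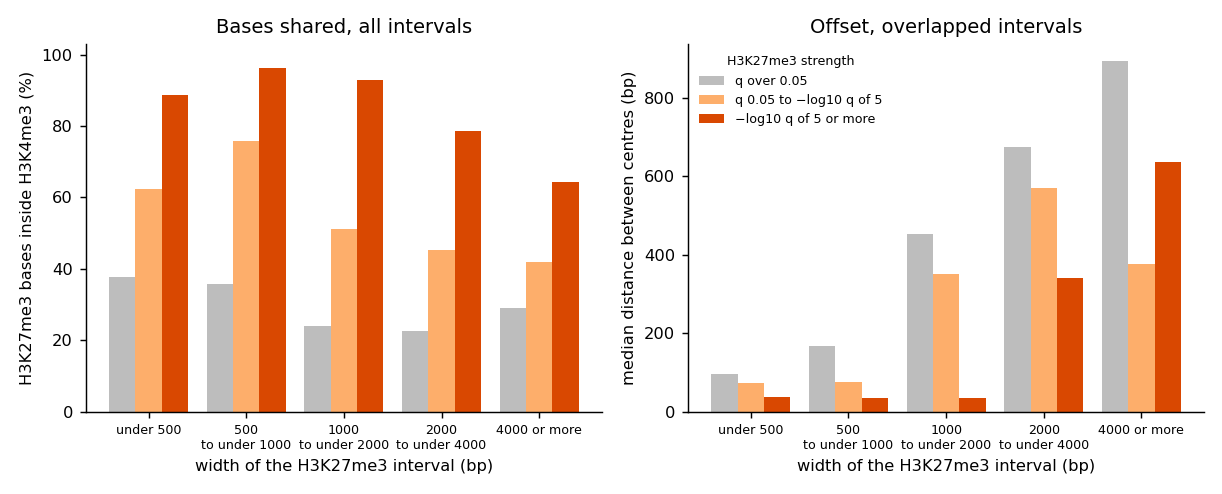
H3K27me3 intervals of control cortex by width class (x axis, bp) and strength (colour). Left, share of all their bases that lies in H3K4me3 (%); right, median distance (bp) between the centres of the H3K27me3 interval and its H3K4me3 partner, overlapped intervals only. At 1000 to under 2000 bp the strong intervals share 93.0% of their bases at an offset of 35.5 bp and the weak ones 24.0% at 453.5 bp; the widest class holds 6 weak, 10 middle and 35 strong intervals.

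Most pairs were simple. Of the 43310 overlapped H3K27me3 intervals, 41045 met 1 H3K4me3 interval, 2134 met 2, 120 met 3 and 11 met 4 or more. In the other direction 45718 H3K4me3 intervals met 1 H3K27me3 interval and 1 met 2. Several partners were a matter of the wide intervals, as 0.682% of the intervals at 500 to under 1000 bp, 39.0% at 2000 to under 4000 bp and 45 of 51 at 4000 bp or more had them. The lists also differed in how near neighbours could lie, since the smallest gap between neighbouring intervals was 1111 bp for H3K27me3 and 290 bp for H3K4me3.

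By position, 13887 overlapped H3K27me3 intervals (32.1%) lay within an H3K4me3 interval, 21950 (50.7%) reached beyond it on 1 side, 5208 (12.0%) on both sides, and 2265 (5.23%) spanned several H3K4me3 intervals. The one-sided overhangs were short, with a median of 79 bp. They pointed to the lower coordinate in 10753 of 21950 cases (49.0%, 48.3% to 49.7%), so that the genome's forward and reverse directions were near balance. Over all widths, intervals that lay within H3K4me3 were stronger, with a median −log10 q of 4.70, than those that reached beyond it on 1 side (2.15) or on both (2.16). They were also the strongest of these in the classes from 500 to under 4000 bp. Under 500 bp the medians were 1.62 within, 1.41 on 1 side and 1.78 on both. At 4000 bp or more only 1 interval lay within.

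Paired marks were of like width. Over the 41043 pairs in which each interval met only the other, the median width was 764 bp for H3K27me3 and 749 bp for H3K4me3. The ratio of H3K27me3 to H3K4me3 width had a median of 0.95 (middle 50% of pairs 0.80 to 1.13), and H3K27me3 was the wider in 38.7%. Among the 15832 pairs with a strong H3K27me3 interval the medians were 942 and 1009 bp, the ranks of both widths had a Spearman correlation of 0.86, and 1.12% had an H3K27me3 interval over 2 times as wide. Among the 11224 pairs with a weak one this correlation was 0.14 and 23.3% were over 2 times as wide. These correlations are across regions of the same pooled libraries and describe the lists only.

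The centres of the marks lay close together. Where an H3K27me3 interval met several H3K4me3 intervals, the nearest centre was taken, which keeps the distance small. The distance between the centres of overlapping intervals had a median of 74.5 bp (middle 50% 29 to 215 bp), it was at most 100 bp in 58.2%, and it exceeded 500 bp in 8.78%. By width the medians were 78, 56, 106, 496.5 and 620 bp. The centre of H3K4me3 lay at the higher coordinate in 49.5% of the pairs with unequal centres. Measured to the strongest H3K4me3 summit in place of the interval's centre, the median distance was 123 bp.

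Coverage around the centres showed where H3K4me3 lay within and beside the H3K27me3 intervals. In 100-bp windows on chromosomes 1 to 20, X and Y, H3K4me3 covered 61.9% of the windows at the H3K27me3 centre, 27.7% at 500 bp and 2.64% at 2000 bp. At 4000 bp it covered 2.44%, at 7500 bp 4.70%, at 10000 bp 4.60% and at 100000 bp 4.14%. Over all intervals H3K4me3 was thus less frequent at 2000 to 4000 bp from the centre than at 7500 bp or more. Enrichment is measured against a local background, and the part of that background in this dip was not tested. H3K27me3 intervals without H3K4me3 were chosen for lacking it, which fixes their values near the centre. Around them H3K4me3 covered 2.70% at 1000 bp, 4.50% at 2000 bp and 4.24% at 100000 bp. Around all weak intervals it covered 3.76% at 2000 bp and 4.17% at 100000 bp. Around strong H3K27me3 intervals the contrast was larger than over all intervals. There H3K4me3 covered 95.7% at the centre, 1.15% at 2000 bp and 4.26% at 100000 bp. H3K27me3 around H3K4me3 centres had the same shape, with 36.7% at the centre, 1.83% at 4000 bp and 3.0% at 100000 bp. In wide H3K27me3 intervals H3K4me3 was not highest at the centre. At 2000 to under 4000 bp it covered 48.5% of the windows at the centre and 57.2% at 900 bp, near the intervals' ends. At 1000 to under 2000 bp the values were 57.1% at the centre and 62.8% at 400 bp. The H3K27me3 list is broad and the H3K4me3 list narrow, and the part of this in the pattern was not tested.

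**Figure D3:**
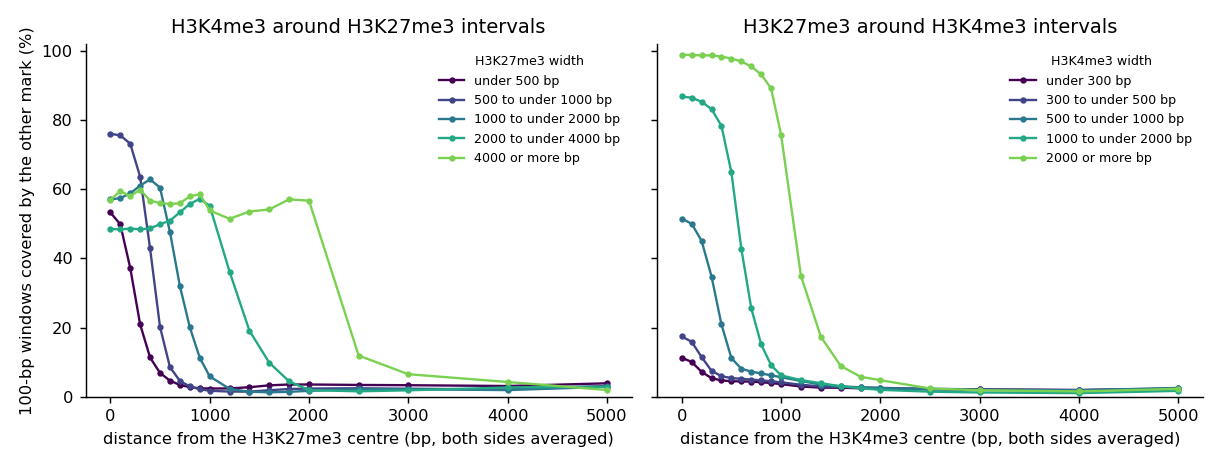
Share of 100-bp windows covered by the other mark (%, y axis) against the distance from the interval's centre (x axis, bp, mean of both sides), on chromosomes 1 to 20, X and Y. Lines are width classes of H3K27me3 (left) and H3K4me3 (right). H3K27me3 intervals of 2000 to under 4000 bp are covered more at 900 bp (57.2%) than at the centre (48.5%), whereas H3K4me3 intervals of each class are covered most at the centre.

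The overlap followed strength in both lists. When the H3K27me3 intervals were ranked by −log10 q and divided into 10 equal parts (deciles), the share with H3K4me3 rose from 42.4% in the weakest to 98.5% in the 8th, 99.6% in the 9th and 99.4% in the strongest decile. Ranked in the same way, the H3K4me3 intervals met H3K27me3 in 9.41% of the weakest, 41.3% of the 7th, 57.9% of the 8th, 92.0% of the 9th and 99.9% of the strongest decile. The strongest H3K4me3 regions of this cortex were thus nearly all in the H3K27me3 list, while most weak ones were not. They were also nearly all in the other 3 lists, which each held at least 99.9% of the strongest decile. In the 7th decile, where H3K27me3 met 41.3%, H4K16Ac met 93.8%, total H3 84.9% and pan H4 88.5%.

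**Figure D4:**
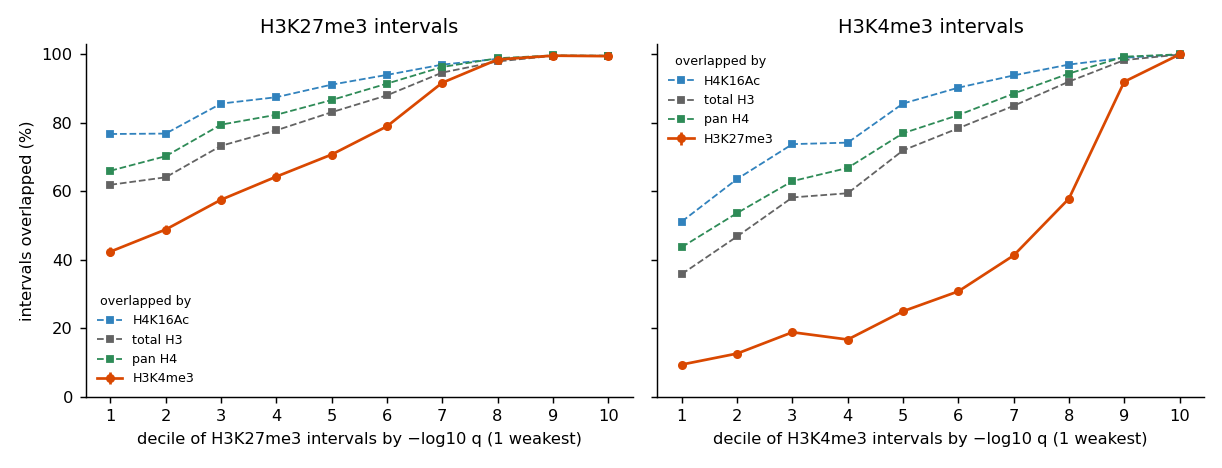
Share of intervals overlapped (%, y axis) in each decile of −log10 q (x axis, 1 weakest), for H3K27me3 (left) and H3K4me3 (right). Solid orange, the other mark with 95% Wilson intervals; dashed, the control H4K16Ac, total H3 and pan H4 lists. H3K27me3 meets 57.9% of the 8th and 92.0% of the 9th decile of H3K4me3, while the dashed lines lie above the solid line up to the 7th decile in both panels.

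The strength of the marks also ran together where both were present. H3K27me3 intervals whose strongest partner was in the weakest decile of H3K4me3 had a median H3K27me3 fold enrichment of 2.80, those with a partner in the 8th decile 3.23, in the 9th 4.35 and in the strongest 7.53. The share with an H3K27me3 −log10 q of at least 5 went from 0.340% to 5.84%, 48.1% and 99.3% over the same deciles. Over the 40099 H3K27me3 intervals that all 4 other lists overlapped, the ranks of H3K27me3 and H3K4me3 −log10 q had a Spearman correlation of 0.88. It was 0.74 between H3K27me3 and pan H4, 0.65 with total H3 and 0.55 with H4K16Ac. H3K4me3 in turn had 0.82 with pan H4 and 0.74 with total H3, and total H3 and pan H4 had 0.86 with each other. The points share the regions and, within a list, the libraries and their depth, and the H3K27me3 and H4K16Ac values are averages over regions. High H3K27me3 thus went with high H3K4me3 across these regions, and not with low H3K4me3, and both went with more signal of the core histones. The part of the latter in the former was not tested.

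H3K27me3 intervals without H3K4me3 were short and weak. Their median width was 419 bp against 796 bp with H3K4me3, their median fold enrichment 2.77 against 3.63 and their median −log10 q 0.910 against 2.64. A q of at most 0.05 was reached by 25.8% of them and by 72.4% of those with H3K4me3. They were also found less often by the other antibodies, with H4K16Ac in 69.2% against 97.7%, total H3 in 51.2% against 94.8% and pan H4 in 57.8% against 96.7%. None of these 3 lists held 3106 of them (21.7%), against 344 (0.794%) of those with H3K4me3. Within the weak intervals alone the order was the same, with total H3 in 47.7% without and 87.9% with H3K4me3.

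Few of these intervals lay just beyond the edge of H3K4me3. The gap to the nearest H3K4me3 interval had a median of 3935 bp (middle 50% 1713 to 8593 bp). Neighbouring H3K4me3 intervals were themselves separated by a median of 10638 bp, so such gaps do not show that these intervals avoid H3K4me3. It was under 500 bp in 995 intervals (6.97%), from 500 to under 2500 bp in 4165 (29.2%), from 2500 to under 10000 bp in 6013 (42.1%), and at least 100000 bp in 152. The 14 intervals on sequences without H3K4me3 are not in these counts.

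The widest H3K27me3 intervals without H3K4me3 were all weak. They lay at chr19:37860832-37865077 (4246 bp, −log10 q 0.905, 483 bp from H3K4me3), chr5:151262719-151266320 (3602 bp, 0.595, 5121 bp) and chr16:21816938-21820471 (3534 bp, 0.786, 3751 bp). None of the 3 reached a q of 0.05, and all 3 met H4K16Ac, total H3 and pan H4. Of the 1012 H3K27me3 intervals of at least 2000 bp with −log10 q of at least 5, 1 stood without H3K4me3.

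Strong H3K27me3 intervals without H3K4me3 were few and unlike the rest. Of the 16607 intervals with −log10 q of at least 5, 122 (0.735%) had no H3K4me3. Their median width was 411 bp against 960 bp for the 16485 strong intervals with H3K4me3, and 66 of the 122 (54.1%) met none of the other 3 antibodies, against 6 of the 16485. The 32 of them under 300 bp had a median fold enrichment of 13.5, and 15 of these 32 exceeded a fold of 15. Of the 18 strong intervals under 300 bp with H3K4me3, 1 did, at a median fold of 5.61. Of the 90 without H3K4me3 at 300 bp or more, 4 did, and of all 16485 with it, 14 did. Below 300 bp, 18 of 50 strong intervals met H3K4me3 (36.0%, 24.1% to 49.9%) and 38.9% of the weak ones (36.9% to 41.0%), while the 1144 intervals between them met it in 54.5% (51.6% to 57.4%). At that width the share thus rose from weak to middle strength and was lower again in the 50 strong intervals.

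The 3 strongest lay at chr1:265469240-265469734 (495 bp, fold 16.1, −log10 q 6944), chr1:244870920-244871207 (288 bp, fold 20.1, −log10 q 757) and chr1:159220476-159220769 (294 bp, fold 20.1, −log10 q 235). All 3 were in none of the other 4 control lists. At a like fold a larger −log10 q goes with a larger pileup and a larger local background, so that such positions hold many fragments in both.

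**Figure D5:**
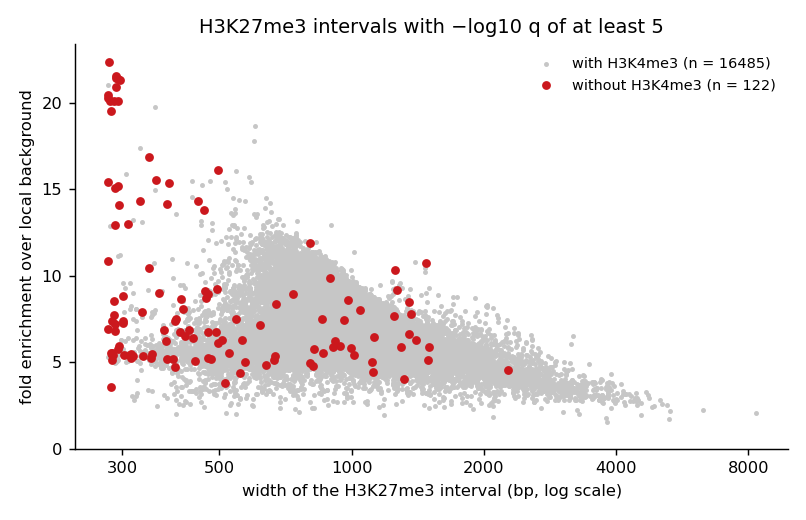
Fold enrichment (y axis) against width (x axis, bp, log scale) of the 16607 H3K27me3 intervals with −log10 q of at least 5. Grey points are the 16485 with H3K4me3 and red points the 122 without. The red points gather at short widths, where 15 of the 32 under 300 bp lie above a fold of 15.

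H3K4me3 intervals without H3K27me3 numbered 67337, more than the 14294 H3K27me3 intervals without H3K4me3, but this order turned when H3K4me3 alone was cut. At equal list length the numbers were 21051 and 22273, and with H3K4me3 of −log10 q of at least 5 they were 4040 and 31214. With that limit in both lists they were 14235 and 283, in the order of the full lists. In the full lists, the H3K4me3 intervals without H3K27me3 had a median width of 395 bp against 725 bp with H3K27me3, a median fold enrichment of 3.14 against 5.25 and a median −log10 q of 1.57 against 7.40. Of them, 4040 had a −log10 q of at least 5. These strong ones met H4K16Ac in 95.9%, total H3 in 90.2% and pan H4 in 92.3%, and only 55 met none of the 3, unlike the strong H3K27me3 intervals without H3K4me3. The gap from an H3K4me3 interval without H3K27me3 to the nearest H3K27me3 had a median of 11945 bp. Neighbouring H3K27me3 intervals were separated by a median of 19776 bp.

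The strongest of them were at chr4:6337286-6337695 (410 bp, fold 16.5, −log10 q 55.5), chr6:128211885-128212195 (311 bp, fold 14.0, 46.6) and chr3:174540822-174541122 (301 bp, fold 14.6, 41.9). The widest were at chr1:56218392-56220771 (2380 bp, −log10 q 4.01), chr15:2813670-2815797 (2128 bp, 4.42) and chr5:138379039-138381087 (2049 bp, 3.27), and these were the only 3 H3K4me3 intervals of at least 2000 bp without H3K27me3. All 6 met the other 3 control lists, and they lay between 1746 and 23992 bp from the nearest H3K27me3. The strongest were thus short and the widest only moderately enriched.

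The widest H3K27me3 intervals each spanned a group of H3K4me3 intervals with gaps between them. The widest, chr12:13803699-13812030 (8332 bp, fold 2.06, −log10 q 8.81), held 7 H3K4me3 intervals, the most of any, which covered 47.8% of it. The next 4 were chr3:107755828-107764011 (8184 bp, 42.3% covered), chr14:108824790-108831083 (6294 bp, 69.9%), chr1:181072466-181078344 (5879 bp, 55.7%) and chr14:46522149-46527452 (5304 bp, 69.6%), each with 4 H3K4me3 intervals. A further interval with 4 was chr10:101287472-101291773 (4302 bp, 64.0%), which was named among equals by its position. Over these wide intervals the H3K27me3 list had no gap and the H3K4me3 list did, and their fold enrichment was low, between 2.06 and 2.79. The H3K27me3 list is a broad one, with no neighbours nearer than 1111 bp. The H3K4me3 list is a narrow one, with neighbours as near as 290 bp. The part of these 2 kinds of list in the gaps was not tested.

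Neighbouring H3K27me3 intervals were also joined into runs, in which each lay at most 10000 bp from the next. There were 39326 runs, of which 29413 (74.8%) were a single interval and 943 held at least 5. The run with the most H3K27me3 bases, chr9:12287677-12479173, held 33 H3K27me3 intervals (36994 bp) over 191497 bp, of which 28 met H3K4me3, and 60.2% of its H3K27me3 bases lay in H3K4me3. The next were chr14:46579947-46688213, with 18 intervals (33741 bp), 16 of them with H3K4me3 and 56.2% of bases shared, and chr1:222342140-222477890, with 21 intervals (23592 bp), 16 with H3K4me3 and 41.6% shared. In the first run 34 of 44 H3K4me3 intervals met H3K27me3, in the second 23 of 24 and in the third 18 of 21. In these H3K27me3-rich stretches the H3K4me3 intervals met H3K27me3 more often than the 40.4% of the whole list, and the runs were chosen for their H3K27me3.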

How the data were processed

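Per the labels and the study's methods, ChIP-seq was done on sonicated E14.5 cortex, and the authors used bowtie2 for alignment (rn6) and MACS2, with its recommended options, for peak calling. Versions, exact options, use of an input and duplicate handling are not given in the sources used here. The deposited lists, 1 per antibody and diet from 3 libraries, give the fold enrichment (a ratio to local background), the −log10 p-value and the −log10 q-value, all by the authors. Titles gave each sample's antibody and diet.

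Overlaps, widths, gaps, offsets and coverage were computed with Python 3.11.15, numpy 2.4.6, pandas 2.3.3 and scipy 1.17.1, and plotted with matplotlib 3.10.9. Functions were tested on simulated intervals against a base by base count. H3K4me3 rows with the same interval were counted once (123221 rows, 113056 intervals). Overlap was at least 1 bp. The background pileup was solved from the most frequent fold and its p. Strong means −log10 q of at least 5, weak a q over 0.05. A partner is any overlapping H3K4me3 interval. Offsets used the partner with the nearest centre, and strength used the partner with the highest −log10 q. The regions, classes and rules were chosen with earlier results of these data known. Regions named were the 5 widest H3K27me3, the 3 with most H3K4me3, the 3 widest and 3 strongest of each mark without the other, and the 3 runs with most H3K27me3 bases, on chromosomes 1 to 20, X and Y. Alternatives were other thresholds, H3K4me3 cut to equal length, an overlap of at least 50%, named chromosomes only, merging and summits. The columns of other lists were used for overlap and rank only, and HFD lists only counted.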

Additional observations from a re-analysis of the deposited data

How the results depend on the processing

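The lists are pooled over replicates, so leaving out a replicate was not possible. No paired analysis was possible because the 3 libraries of an antibody share 1 list and no test was run. Without scaffolds no result moved, and merging H3K27me3 over 1000 bp changed nothing because no gap was that short. Of 63 alternative values, 42 were labelled as moved, with a ratio of 1.5 as the limit for counts. The 63 include the values after merging, which could not move. The label does not measure the size of a change. The share of H3K4me3 with H3K27me3 had it on going from 40.4% to 38.3%. The share of H3K27me3 of at least 4000 bp did not have it on going from 98.0% to 92.2%.

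The share of H3K27me3 with H3K4me3, 75.2%, was 98.3% at −log10 q of at least 5 in both lists, 99.3% with this limit for H3K27me3 only, 45.8% with it for H3K4me3 only, 61.3% with H3K4me3 cut to the 57604 strongest, 62.5% at an overlap of 50%, and 86.9% at a q of at most 0.05 in both lists, an alternative chosen after seeing the data. In the same order, the share of H3K4me3 with H3K27me3 was 54.1%, 15.2%, 87.0%, 63.5%, 36.0% and 38.3%, and that of H3K27me3 under 500 bp with H3K4me3 83.3%, 90.6%, 19.3%, 38.3%, 53.6% and 65.0%. H3K27me3 without H3K4me3 numbered 283, 122, 31214, 22273, 21614 and 4577. H3K4me3 without H3K27me3 numbered 14235 with the limit in both lists, 4040 with it for H3K4me3 and 21051 at equal length. For H3K27me3 of at least 4000 bp the share was 100% with the limit in both lists, with it for H3K27me3 and at the q limit, and 60.8% at an overlap of 50%. The median share covered was 98.9% with the limit in both lists and with it for H3K27me3, 98.2% with it for H3K4me3, 96.8% at equal length and 97.4% at the q limit. The median offset was 37, 37.5, 50.5, 63 and 55 bp in these 5 settings and 123 bp to the summit. A longer or more lenient list meets more of the other, so the shares depend on where the lists end.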

Other observations

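On chromosome X the marks shared more of their regions than on the autosomes. H3K27me3 met H3K4me3 in 79.9% of 1679 intervals (77.9% to 81.7%), against 71.3% on chromosome 12 to 76.2% on chromosome 7 over the 20 autosomes. H3K4me3 met H3K27me3 in 53.9% of 2635 intervals (52.0% to 55.8%), against 36.9% to 43.8%. Chromosome Y held few intervals, and there the shares were 84.6% of 39 H3K27me3 (70.3% to 92.8%) and 57.8% of 64 H3K4me3 (45.6% to 69.1%). There were 0.637 H3K27me3 per H3K4me3 interval on X and 0.457 to 0.544 on the autosomes. H3K4me3 intervals were also stronger on X, where 41.5% had a −log10 q of at least 5, against 23.5% to 29.6%. Within the strong ones the share with H3K27me3 was 91.2% on X against 84.6% to 89.2%, and below that limit 27.5% against 19.5% to 27.2%, so that the gap was smaller at like strength. X lay within the range of the autosomes for H3K4me3 with H4K16Ac (83.0% against 79.3% to 88.8%) and with total H3 (74.2% against 68.3% to 77.3%), and above it for pan H4 (82.8% against 74.9% to 78.8%). The chromosomes were compared after their values were seen, and no test was run.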
